A study of Mus musculus with 16 samples.

Results

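The replication-dependent histone genes are the protein-coding genes of the Hist1, Hist2, Hist3 and Hist4 clusters that encode the H1, H2A, H2B, H3 and H4 proteins. They were chosen by symbol and locus type from the deposited gene table, and 67 of its 54432 genes met this rule. The levels come from RNA-seq of THY-1+ germ cells of the mouse that were blown off their feeder layer, that is spermatogonia from C57 LacZ pups that include spermatogonial stem cells and their progeny and are grown on STO fibroblast feeders. All cultures were at passages 9 to 12 and received 20 ng/mL GDNF, a growth factor for spermatogonial stem cells, with 150 ng/mL of its co-receptor GFRA1. For a week, 4 groups of 4 labelled cultures had in addition no FGF (albumin alone, the control), 1 ng/mL FGF9, 20 ng/mL FGF9 or 1 ng/mL FGF2, the FGFs being fibroblast growth factors.

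The deposited table holds no value for any single library. Its 1 measurement is the mean normalized count of each gene over all libraries, 12 by the table's title against 16 labelled cultures, and its remaining columns are the authors' own comparisons of each FGF treatment with control, which were not used here. No difference between the FGF treatments is therefore reported for these genes. Each value below is the authors' mean over the 4 treatments together, without a spread or a test, and differences between genes are descriptions. The means of all genes summed to 28161874 normalized counts, and the depth of each library is unknown.

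During S phase, replicated DNA is packed into nucleosomes, for which new H2A, H2B, H3 and H4 proteins are needed. H1 binds the linker DNA between nucleosomes. The replication-dependent genes supply these proteins from many near-identical copies, most of which lack introns. Their mRNAs normally end just behind a stem-loop that is bound by SLBP, and they are the only known metazoan mRNAs that lack a poly(A) tail. The libraries here were made from poly(A) RNA, so histone mRNA that ends at the stem-loop is captured poorly if at all. Poly(A)-tailed transcripts that read past the stem-loop are known from some of these genes, and the share of such transcripts was not tested here.

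The stem-loop was searched in the 100 bases behind the stop codon of each GENCODE M21 transcript as a pattern of 16 bases, which read GG, 3 bases of any kind, TTT, 2 of any kind, A, 3 of any kind and CC, and in which the arms can pair (G with T allowed). It was found in 44 of the 67 genes, in 6 forms. Of the genes with an annotated stretch of at least 100 bases behind the stop codon, 25 of 31 (80.6%) held it, against 3 of 19848 other protein-coding genes (0.0151%), and the 3 were H2afx, H2bfm and Cyp17a1. The element of the most abundant member of each class that holds it is given here as DNA, with the stem-loop in capitals and 5 flanking bases on each side in lower case, because it marks where the mature mRNA normally ends.
Hist1h1c: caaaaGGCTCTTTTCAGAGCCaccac
Hist3h2a: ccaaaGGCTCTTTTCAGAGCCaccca
Hist3h2ba: ccaaaGGCTCTTTTCAGAGCCacctt
Hist1h3c: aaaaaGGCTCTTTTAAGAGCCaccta
Hist1h4i: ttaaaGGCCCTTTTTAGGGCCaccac
The capitals lie in GRCm38 at chr13:23739512-23739527 (plus strand) for Hist1h1c, chr11:58955172-58955187 (plus) for Hist3h2a, chr11:58949349-58949364 (plus) for Hist3h2ba, chr13:23745047-23745062 (minus) for Hist1h3c and chr13:22040966-22040981 (minus) for Hist1h4i, in each case in the 3′ UTR. The form of Hist1h1c was shared by 26 genes of the H1, H2A, H2B and H3 classes. The form of Hist1h3c was found in 6 genes of the H1, H2B and H3 classes. The 11 H4 genes with an element used 3 other forms, 7 of them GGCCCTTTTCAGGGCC, 2 the form of Hist1h4i and 2 the form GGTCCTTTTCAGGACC. Hist2h2ac alone had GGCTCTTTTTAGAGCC. The element began between 22 and 59 bases behind the stop codon, with a median of 32. The other 23 genes had no match, and 13 of them have no annotated base behind the stop codon.

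The members had low measured levels in these poly(A) libraries. None reached 100 mean normalized counts, 3 reached 50, 17 reached 10, 37 lay from 1 to under 10 and 13 lay under 1, of which Hist2h2aa1 was listed at 0. Their median was 4.47 normalized counts, where that of all protein-coding genes was 132. A mean of at least 10 was reached by 25.4% of the members and by 66.7% of the protein-coding genes. The 67 genes made up 0.308% of the protein-coding genes and together 664 normalized counts, or 0.00236% of the sum over all genes.

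Per kilobase of annotated exon length, which is the scale for setting one gene against another, the median of the members was 6.07 normalized counts per kb and that of all protein-coding genes 34.2. Only 6 members lay above the latter value. They were Hist1h4i (103 per kb), Hist1h4k (74.8), Hist1h2bc (53.4), Hist1h1c (51.0), Hist3h2ba (44.0) and Hist1h1a (42.8). These 6 genes held 44.8% of the summed level of all members per kb. Of all protein-coding genes, 39.3% exceeded the level of Hist1h4i per kb.

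**Figure D1:**
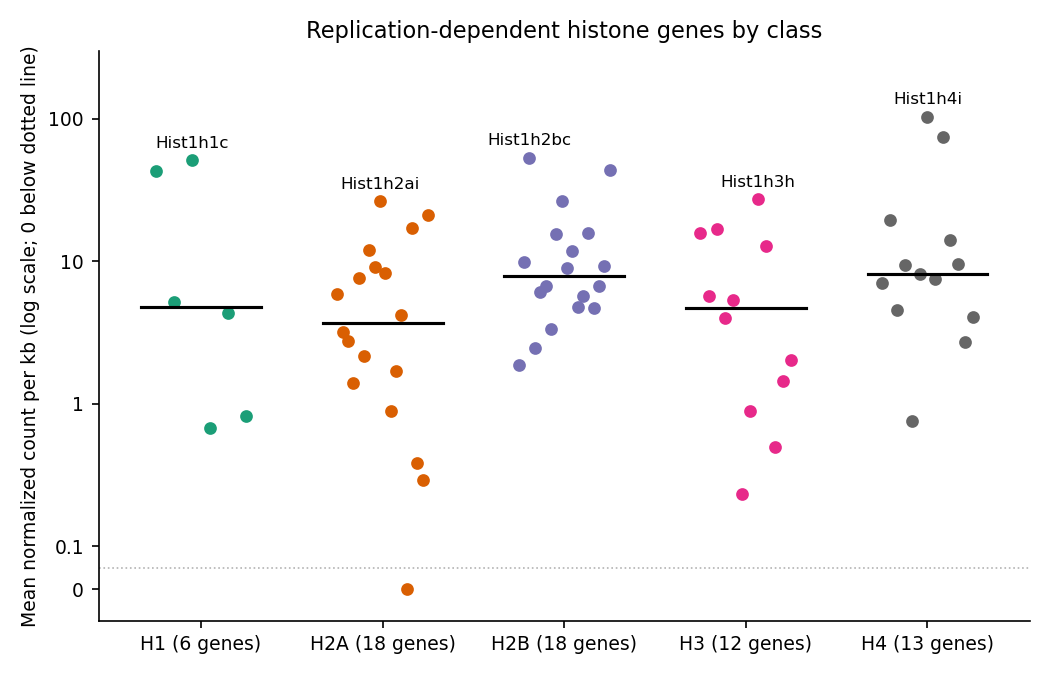
Mean normalized count per kb of exon length (log axis, with 0 set below the dotted line) of each member by histone class; each point is a gene and each bar the class median. The medians lie between 3.71 (H2A) and 8.12 (H4) per kb, and in each class the points span more than 10-fold.

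The 6 linker histone genes of the H1 class lie in the Hist1 cluster. Hist1h1c, a somatic H1 subtype and the member with the highest mean count of all, had 79.5 normalized counts (51.0 per kb). GENCODE places it at chr13:23738808-23740367 as a single exon that runs 840 bases past the stem-loop printed above. Hist1h1a, at chr13:23763666-23764406, had 31.7 (42.8 per kb) although its annotated transcript ends 48 bases behind the stop codon. Hist1h1e had 8.39 (4.35 per kb), Hist1h1d 5.03 (0.68 per kb over a 7425-base model) and Hist1h1b 3.86 (5.19 per kb). Hist1h1t, the testis-specific linker histone that is made in spermatocytes, had 0.75 (0.82 per kb). Per kb, Hist1h1c and Hist1h1a thus stood apart from the rest of the class, and Hist1h1c alone held 61.5% of the summed counts of the class.

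The 18 H2A genes had the lowest class median, 2.17 normalized counts (3.71 per kb), and 7 of them lay under 1. Hist3h2a on chromosome 11, at chr11:58954685-58956830, had the highest mean count of the class, 45.0 (20.98 per kb), over a single exon that extends 1643 bases past its stem-loop. Hist1h2ai had 10.4 and, with a model of coding sequence alone, the highest level per kb (26.4). Hist2h2aa2 followed with 8.98 (17.0 per kb). Hist2h2aa1 was listed at 0, and these neighbours cannot be separated well: none of the 50-base windows of Hist2h2aa2 was found only in that gene, and of those of Hist2h2aa1 only 10.6%, so how the quantification divided the reads between them is uncertain. Hist1h2aa, a testis-specific H2A, had 2.30 (5.90 per kb). The lowest H2A genes beside Hist2h2aa1 were Hist2h2ac at 0.15 (0.29 per kb) and Hist2h2ab at 0.17 (0.38 per kb), and more than 60% of the windows of each occur in no other gene.

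The 18 H2B genes held the largest share of the summed member counts, 33.5%, while per kb the H4 genes did, with 32.2% against 28.8%. The H2B genes had a median of 5.91 (7.83 per kb), and 7 of them reached 10. Hist1h2bc had 61.8 (53.4 per kb). Its annotated transcript has 2 exons over chr13:23684199-23692908, so that its last part lies several kilobases from the coding exon, and the stem-loop pattern was absent from it. Hist1h2bq had 31.8 (15.8 per kb), but only 2.75% of its windows were found in no other gene. Hist3h2ba had 27.0 (44.0 per kb) and Hist2h2be 24.3 (9.29 per kb). Every window of Hist2h2be, a 2620-base single exon, occurs in that gene alone. Hist1h2ba, the testis-specific H2B, had 0.72 (1.87 per kb), the lowest level of the class on both scales. Hist2h2bb, also of the Hist2 cluster, had 2.54 (6.67 per kb).

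The 12 H3 genes had no member above 11.2 normalized counts. Hist1h3h had 11.2 (27.3 per kb), Hist1h3c 10.7 (16.9 per kb) and Hist1h3a 8.41 (15.7 per kb). Only 6.08% of the windows of Hist1h3h were found in no other gene. The Hist2 genes lay lower, with Hist2h3c1 at 2.62 (1.43 per kb), Hist2h3c2 at 2.08 (2.04 per kb) and Hist2h3b at 0.24 (0.50 per kb). Of these, Hist2h3c1 had no window of its own. Hist1h3g and Hist1h3f were also under 1, with 0.47 (0.89 per kb) and 0.29 (0.23 per kb).

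The 13 H4 genes encode a single protein of 103 residues with the first methionine, from 12 different coding sequences. Hist1h4i, at chr13:22040636-22041362, had 75.2 normalized counts (103 per kb), the highest level of all members per kb, and held 46.9% of the counts of the class. Hist1h4k had 23.3 (74.8 per kb) over a model that holds the reading frame and stop codon only. Hist4h4 on chromosome 6, at chr6:136801553-136804415, had 11.5 (4.03 per kb), since its single exon is 2863 bases long. Hist2h4 had 4.42 (2.71 per kb). At the other end, Hist1h4f had 0.30 (0.76 per kb). Thus genes with 1 and the same protein product differed more than 100-fold in level per kb. The low end of this range rests on Hist1h4f at 0.30 normalized counts, a level at which a few reads decide the mean.

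The other classes hold more proteins. The 12 H3 genes encode 2 proteins, 8 of them the same one. The 18 H2A genes encode 9 proteins, the commonest from 9 genes, and the 18 H2B genes encode 11, the commonest from 6 genes. The 6 H1 genes each encode a protein of their own.

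By cluster, the 54 genes of Hist1 on chromosome 13 held 80.6% of the summed member counts, with a median of 4.996 (6.87 per kb). The 10 Hist2 genes on chromosome 3, within 50.3 kb, held 6.86%, with a median of 2.31 (1.74 per kb), and Hist2h2be alone accounted for 53.4% of that. The pair of Hist3 genes on chromosome 11, within 7.91 kb, held 10.8%, and both reached 20 per kb. Hist4h4 held 1.74%.

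The Hist1 cluster spans 2219 kb and falls into a pair of blocks that are separated by 1487 kb without a member. The first, chr13:21715763-22043676, holds 23 genes with a median of 9.56 per kb and has Hist1h4i near its far end. The second, chr13:23531050-23934851, holds 31 genes with a median of 5.35 per kb and contains Hist1h1c, Hist1h2bc and Hist1h1a. A mean count of at least 10 was reached by 7 genes of the first block and by 6 of the second. High and low genes lay side by side in both.

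**Figure D2:**
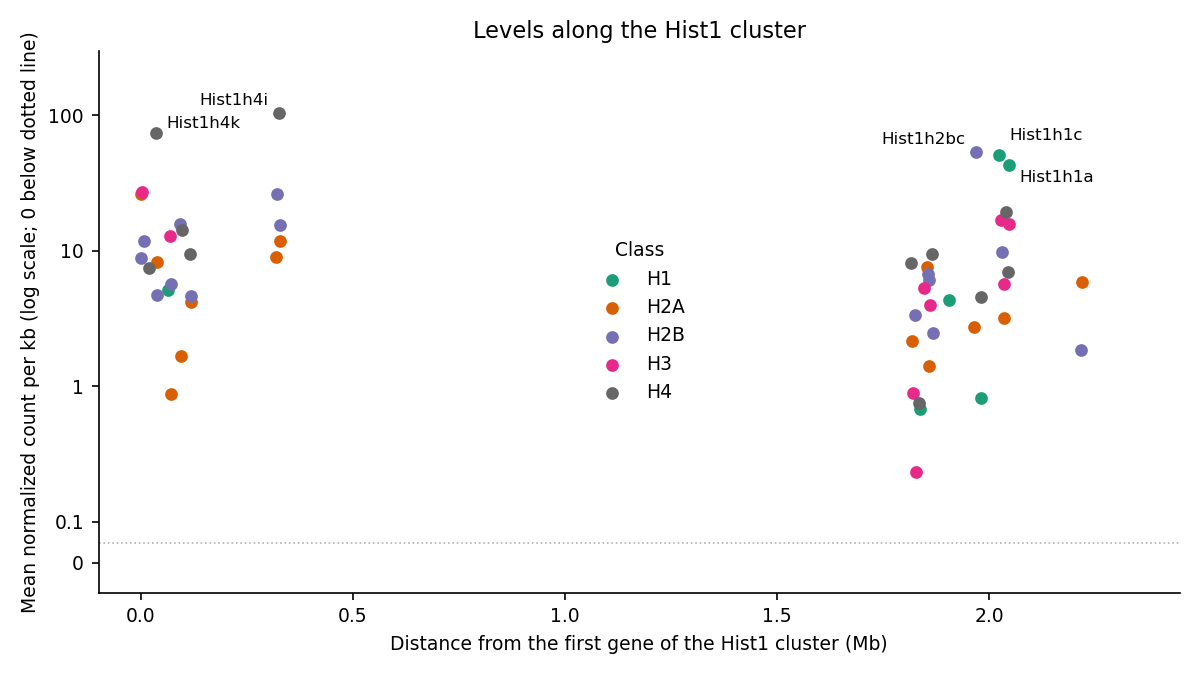
Mean normalized count per kb (log axis) of the 54 Hist1 genes against the distance of each gene's start from the first gene of the cluster, in Mb; each point is a gene, coloured by class. Both blocks hold genes above 40 per kb and genes under 2 per kb.

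Many H2A and H2B genes share a promoter region, with starts on opposite strands that face away from each other. There were 12 such pairs with starts within 1 kb, from 176 to 306 bases apart. The H2B gene had the higher level per kb in 8 pairs and the H2A gene in 4. The higher gene exceeded the lower by a median of 3.06-fold per kb, and the range was 1.11 to 31.9. The widest pair was Hist2h2be (9.29 per kb) with Hist2h2ac (0.29), followed by Hist1h2bc (53.4) with Hist1h2ac (2.74). The closest was Hist1h2br (4.66) with Hist1h2ap (4.21). The testis-specific pair was the reverse of most, with Hist1h2aa (5.90 per kb) above Hist1h2ba (1.87). Whether reads from an extended transcript were counted for a neighbouring gene was not tested.

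Promoters were taken from RefSeq (GRCm38.p6, 250 bases before to 50 after the start) and matched 61 of the 67 genes. They were searched on both strands for TATAAA, the core of a TATA box, for CCAAT, and for the octamer ATTTGCAT, which POU factors bind and which is a known element of H2B promoters. No motif contains another. TATAAA was found in 57.4% of the member promoters and in 13.6% of all 32817 promoters. CCAAT was found in 85.2% and 37.4%. It was in every matched H1, H2A, H2B and H3 promoter but in only 3 of 12 H4 promoters. The octamer was found in 21.3% and 1.74%, in 7 of 17 H2A and 6 of 16 H2B promoters, and in none of the H1, H3 or H4 promoters. The H2A and H2B genes of a facing pair share these stretches. The medians by motif that follow are of mean counts and not per kb, and an effect of a motif on the level was not tested. Over all matched members the median was 4.11 normalized counts with TATAAA (35 of 61 promoters) and 5.69 without. The order differed between classes, with 5.15 and 2.35 in H3 (TATAAA in 4 of 10 promoters) and 1.51 and 7.38 in H2A (11 of 17). With and without the octamer, the medians were 3.67 and 0.84 in H2A and 4.57 and 6.40 in H2B. The H2B medians leave out Hist1h2bc (61.8) and Hist2h2be (24.3), which had no matched promoter. The promoters of their facing genes, Hist1h2ac and Hist2h2ac, held the octamer.

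The 150 bases before the start are shown for the 2 genes with the highest and the 2 with the lowest listed mean count. Matches to the motifs are in capitals. The levels come from poly(A) libraries, and how far they follow promoter output was not tested. The annotated transcripts of the 2 high genes hold a poly(A) signal and run 840 (Hist1h1c) and 330 (Hist1h4i) bases past the stem-loop. The 2 low genes are limited as examples of a low promoter. Reads of Hist2h2aa1, listed at 0, cannot be separated well from those of Hist2h2aa2 (8.98 normalized counts). Hist2h2ac faces Hist2h2be (24.3) with starts 239 bases apart, so the stretch shown lies in the promoter region of both.
Hist1h1c: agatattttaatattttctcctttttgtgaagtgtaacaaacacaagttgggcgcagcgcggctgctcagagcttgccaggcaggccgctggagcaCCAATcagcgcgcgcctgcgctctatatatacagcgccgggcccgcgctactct
Hist1h4i: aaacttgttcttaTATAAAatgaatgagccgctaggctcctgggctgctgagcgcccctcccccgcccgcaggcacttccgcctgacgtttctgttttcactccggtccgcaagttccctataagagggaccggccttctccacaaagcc
Hist2h2ac: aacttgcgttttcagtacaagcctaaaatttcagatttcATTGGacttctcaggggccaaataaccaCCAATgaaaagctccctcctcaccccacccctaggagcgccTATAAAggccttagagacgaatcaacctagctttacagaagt
Hist2h2aa1: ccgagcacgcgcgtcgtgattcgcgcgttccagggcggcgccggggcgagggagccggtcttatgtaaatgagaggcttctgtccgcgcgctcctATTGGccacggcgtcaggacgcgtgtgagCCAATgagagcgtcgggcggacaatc
They lie at chr13:23738657-23738806 (plus strand) for Hist1h1c, chr13:22041363-22041512 (minus) for Hist1h4i, chr3:96220881-96221030 (minus) for Hist2h2ac and chr3:96245347-96245496 (plus) for Hist2h2aa1. ATTGG is CCAAT on the other strand. Hist2h2ac, with 0.15 normalized counts, held CCAAT on both strands and TATAAA close to its start, and its 300-base promoter also held the octamer outside the stretch shown. The promoter of Hist2h2aa1 held TATAAA outside the stretch shown. Hist1h4i, with 75.2, held TATAAA only far from the start, and Hist1h1c, with 79.5, held a CCAAT match and no TATAAA. Only exact matches were searched. Close to the start, the stretches shown hold tataag in Hist1h4i and tatata in Hist1h1c, which were not counted.

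The ends of the annotated transcripts were then set beside the levels. In 17 members a transcript had a poly(A) signal (AATAAA or ATTAAA) within its last 50 bases. These genes had a median of 10.3 normalized counts, 9 of them reached 10, and together they held 52.1% of the member sum. The 37 genes whose transcripts continue behind the stop codon without such a signal had a median of 4.47, and 5 reached 10. Any base behind the stop codon counted here, and Hist1h2af and Hist1h2ah have only 1 and 2. The 13 genes whose transcripts end at the stop codon had a median of 3.24, and 3 reached 10. Of the 10 genes with the highest mean counts, 6 had a poly(A) signal in the annotation, and of the 20 lowest 2 had one.

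The medians of the 3 groups were closer per kb of exon length, with 7.50, 5.35 and 6.67 normalized counts per kb, as the transcripts with a signal have a median length of 1560 bases and those that stop at the stop codon 393. Per kb of coding length the medians were 27.3, 12.2 and 6.72. The order of the groups is thus not the same on every scale. Among the 44 genes with a stem-loop, 22 had a transcript that continues at least 100 bases past it, by 151 to 4884 bases. Their median was 5.49 normalized counts (4.19 per kb), against 4.08 (8.84 per kb) in the 22 whose transcripts end 3 to 74 bases past it. The mean counts of the first 22 reached 79.5 and those of the second 22 only 12.5.

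**Figure D3:**
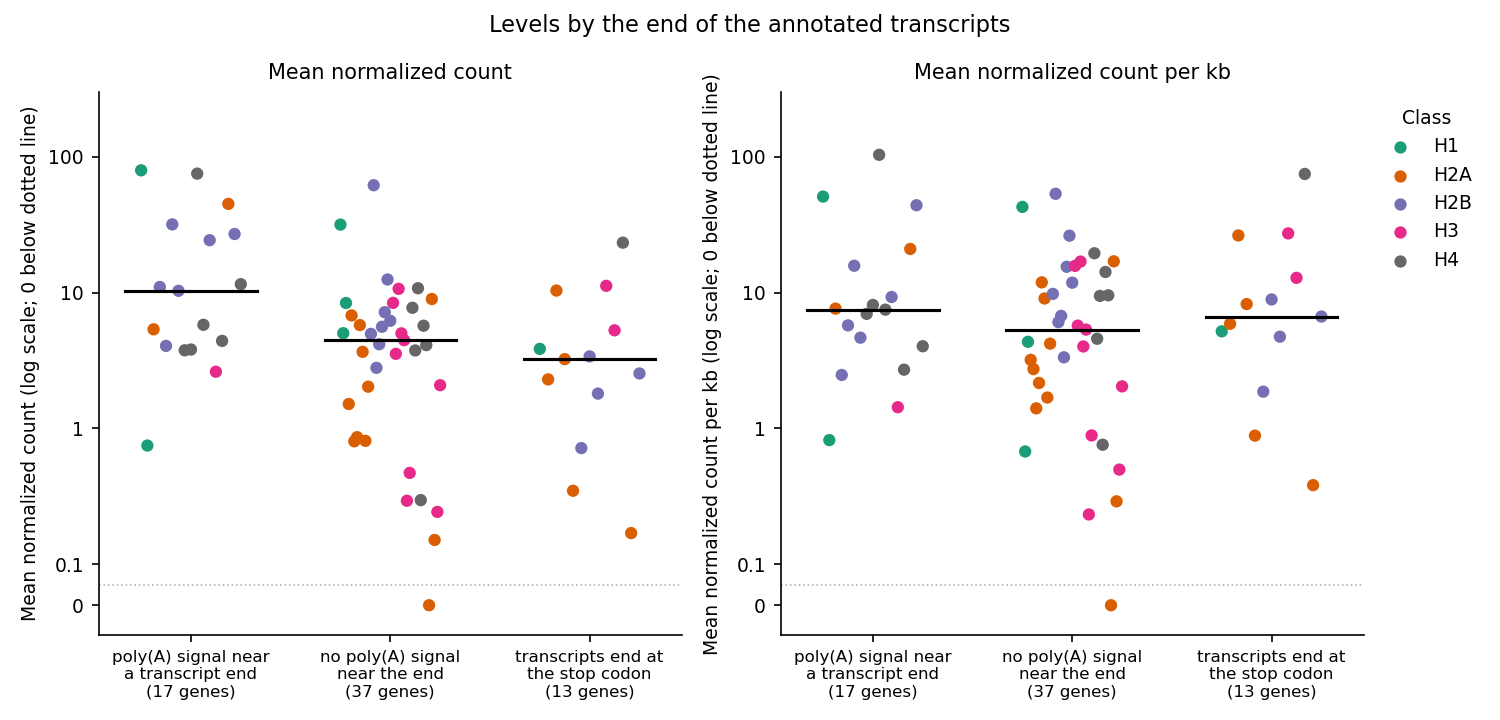
Mean normalized count (left) and mean normalized count per kb of exon length (right), both on log axes, of each member by the end of its GENCODE M21 transcripts; each point is a gene coloured by class and each bar the group median. The medians fall from 10.3 over 4.47 to 3.24 on the left and are 7.50, 5.35 and 6.67 on the right.

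Near-identical copies limit what the level of a single gene means. The share of 50-base windows of a gene's longest transcript that occur in no other gene's transcripts ranged from 0% for Hist2h2aa2 and Hist2h3c1 to 100% for Hist1h1a, Hist1h1b, Hist1h1t and Hist2h2be. It was under 10% in 8 genes, 10% to under 50% in 24 and at least 50% in 35. The class median was highest for H1 (98.9%) and lowest for H2A (27.0%), with 38.0% for H3, 52.5% for H2B and 60.5% for H4. The median level was 12.4 per kb in the 8 genes under 10%, and 5.89 and 5.90 per kb in the other groups. Of the 6 genes above the protein-coding median per kb, all but Hist1h4k (28.5%) had most of their windows to themselves.

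**Figure D4:**
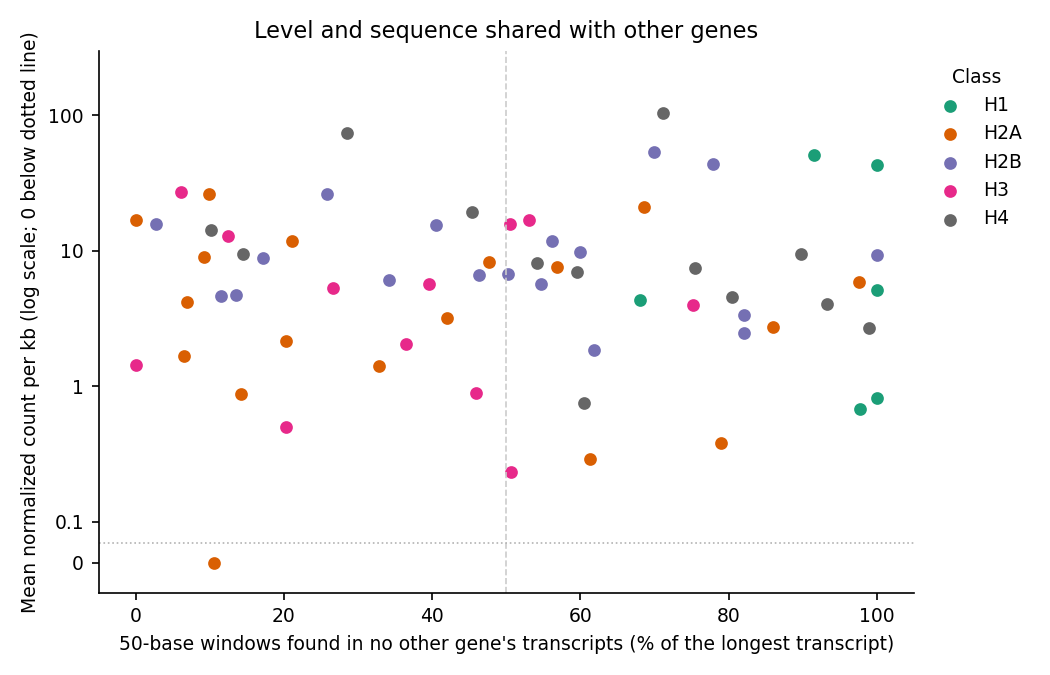
Mean normalized count per kb (log axis) of each member against the share of 50-base windows of its longest transcript that occur in no other gene's transcripts, in percent; each point is a gene coloured by class and the dashed line marks 50%. Genes from under 1 to over 40 per kb occur to the right of the line, and the H1 genes all lie there.

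The replication-independent histone genes, whose mRNAs mostly carry poly(A) tails and which replace histones outside S phase, had far higher levels in these poly(A) libraries. Of the 16 measured, 11 exceeded the highest member per kb. Their summed level was 66.8 times that of all 67 members, and 19.9 times per kb. Histone mRNA that ends at the stem-loop is captured poorly in such libraries, and how far this sets the ratios was not tested. H3f3b (16298 normalized counts, 5477 per kb) and H3f3a (10603, 3026 per kb) encode H3.3, the replacement form of H3. H2afz (4794, 2699 per kb) encodes H2A.Z, and Cenpa (3121, 533 per kb) the H3 variant of the centromere. H2afx, whose transcripts carry the stem-loop pattern too and are known in both tailed and tailless forms, had 728 (526 per kb). H2bfm, with the same element, had 31.4 (29.9 per kb). The genes H2al1n, H1fnt, Hils1 and H1foo, which are known from spermatids or oocytes, lay between 0 and 1.05.

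Genes that act on histone mRNA and protein were abundant, and each of those listed was above every member in mean count. Per kb, however, Lsm11 lay under Hist1h4i, and Zfp473 lay under each of the 6 members above the protein-coding median. All 14 genes of histone mRNA 3′ end processing had at least 346 normalized counts. Slbp, the stem-loop binding protein, had 6520 (1073 per kb), while Lsm10 (427, 453 per kb) and Lsm11 (567, 87.9 per kb), subunits of the U7 snRNP, and Zfp473 (346, 34.4 per kb), a U7-associated zinc finger protein, were the lowest in mean count, and Zfp473, Lsm11 and Eri1 (160 per kb) per kb. Among the 10 genes of histone gene transcription, Npat, the coactivator at histone loci that cyclin E and CDK2 phosphorylate, had 5351 (856 per kb), Hinfp, which binds H4 promoters, 3229 (389 per kb), and Pou2f1, which binds the octamer, 5076 (306 per kb). The 16 histone chaperones ranged from 1098 (Asf1a) to 32090 (Npm1), with Nasp, which binds H1 and H3–H4, at 14741 (1961 per kb) and Chaf1a, of the assembly factor that follows the replication fork, at 5393 (609 per kb).

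**Figure D5:**
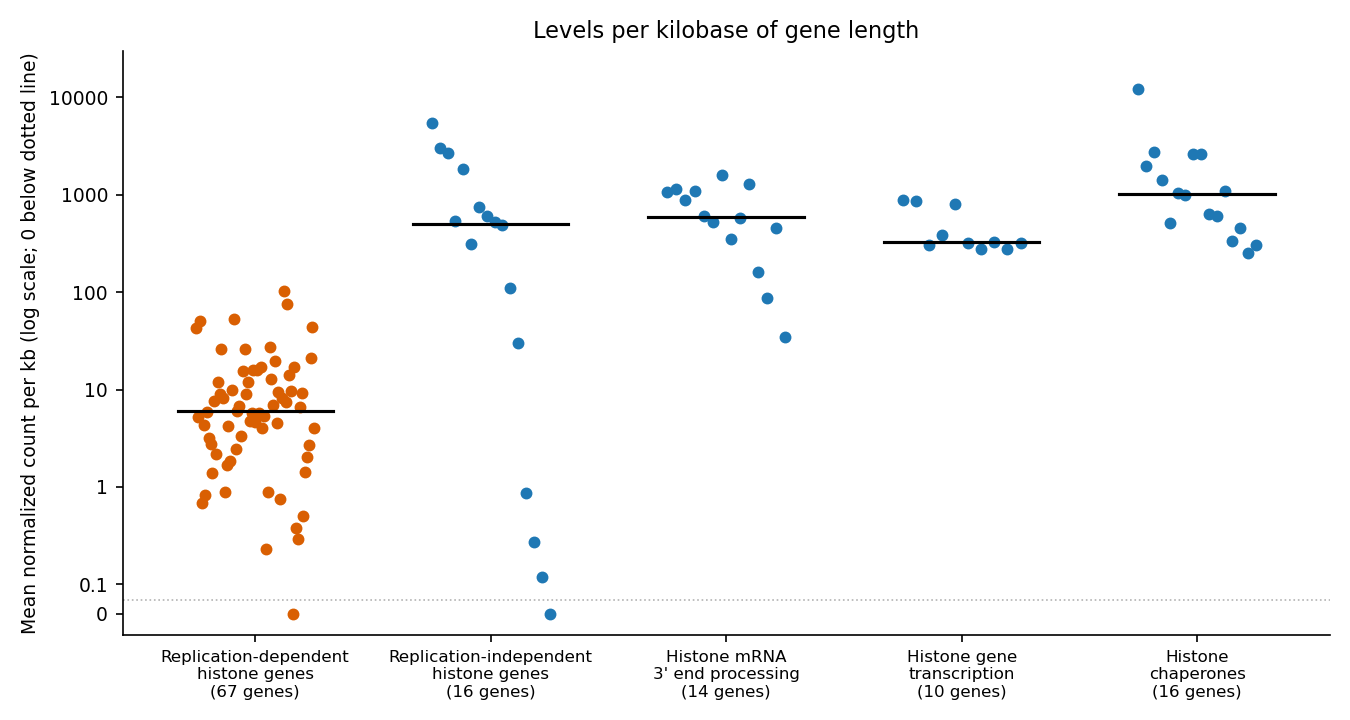
Mean normalized count per kb of exon length (log axis, with 0 set below the dotted line) of the members and of 4 lists of other genes; each point is a gene and each bar the median. The median of the members is 6.07 per kb, and those of the lists are 506, 594, 324 and 1018 per kb from left to right.

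The labelled cell type was checked with marker genes. All 11 markers of germ cells and undifferentiated spermatogonia were above every member in mean count and per kb, from Nanos2 (380 normalized counts) to Dazl (47959). A level above every member does not single out germ cells, as the members are low. In mean count it was also reached by 6 of 7 fibroblast genes and 3 of 4 genes of differentiating spermatogonia. The same held for 2 of 4 Sertoli cell genes and 2 of 6 genes of spermatocytes and spermatids. Of the 6 genes of spermatocytes and spermatids, Sycp3 (1776) and Piwil1 (252) were above 10, while Tnp1 (4.51), Acrv1 (1.49), Prm1 (0.072) and Prm2 (listed at 0) were under it. Of the 4 Sertoli cell genes, Sox9 (424) and Wt1 (273) were above 10, and Gata4 (9.55) and Amh (2.55) under it. All 4 genes of differentiating spermatogonia were above 10, from Stra8 (50.3) to Kit (686). Fibroblast genes were also present, with all 7 markers at 10 or more, from Thy1 (65.7) to Fn1 (10622), and the part of feeder RNA in the levels of the histone genes was not tested, and in these bulk samples fewer cells of a type and less RNA per cell cannot be told apart.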

How the data were processed

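The authors extracted RNA after gently blowing the germ cells off the feeder, made poly(A) libraries (TruSeq Stranded mRNA) and sequenced them on a NextSeq500. The submitters' processing notes name STAR, Salmon, DESeq2 and the GRCm38 build (patch release p6 in the study's methods), while the versions of the tools, the model formula and filters on genes were not given in the sources used here. As deposited, the measurement is a signal, the authors' mean normalized count of each gene over all libraries, which is the same in the 3 comparisons. The table's other columns hold the authors' log2 fold changes, standard errors, Wald statistics and p-values for each FGF treatment against no FGF. They were not used, and without values per library no comparison of treatments could be made.

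The members and lists were chosen with earlier results of these data known. All 67 versioned gene IDs were those of GENCODE M21 (GRCm38), from which coordinates, exon lengths, stop codons and transcript sequences were taken. Levels per kb are the mean normalized count over the union of a gene's exons. A mean of 10 was the minimum for detection. Named were the 3 highest of each class, every Hist2, Hist3 and Hist4 member, testis-specific members and those at the ends of a range. Others in the text were chosen after their values were seen. H3f3c, a processed pseudogene in the table, was left out of the list of replication-independent genes. RefSeq promoters were matched through synonyms. Summaries were made in Python 3.11.15 with pandas 2.3.3, and the pattern search and shares were tested on simulated data.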

Additional observations from a re-analysis of the deposited data

How the results depend on the processing

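No paired analysis was possible because the deposited table gives no value per library, so the culture numbers 6 to 9 could not be used, and the planned edgeR fits, other scalings, filters, left-out replicates and the replicate block were not run. The number of members detected was 17 at a minimum of 10 mean normalized counts, and 54, 32 and 3 at minima of 1, 5 and 50, with 66 above 0. It was also 17 with the 3 pseudogene rows or without the testis-specific members. The shares of the H1, H2A, H2B, H3 and H4 genes in the summed level were 19.5%, 14.8%, 33.5%, 8.18% and 24.1%. Per kb of gene length they were 12.7%, 15%, 28.8%, 11.3% and 32.2%, so that H4 and not H2B was highest. They were 8.5%, 16.8%, 38%, 9.29% and 27.4% without Hist1h1c, 19.5%, 14.5%, 33.5%, 8.22% and 24.3% without the testis-specific members and 19.4%, 14.8%, 33.6%, 8.15% and 24% with the pseudogenes. In alternatives chosen after seeing the data they were 11.9%, 14.9%, 34.7%, 7.78% and 30.7% per kb of coding length, and 26.8%, 12.4%, 31%, 5.05% and 24.7% over members with at least 50% unique windows. The shares of Hist1, Hist2, Hist3 and Hist4 were 80.6%, 6.86%, 10.8% and 1.74%. They were 86.7%, 4.89%, 7.88% and 0.489% per kb, 77.9%, 7.79%, 12.3% and 1.97% without Hist1h1c and 80.4%, 6.83%, 11.1% and 1.73% with the pseudogenes. The class medians per kb were 4.77, 3.71, 7.83, 4.68 and 8.12 normalized counts per kb. In plain counts, leaving out genes at 0 moved the class median of H2A only, from 2.17 to 2.30. The median of the members and of all protein-coding genes was 4.72 and 257 over genes above 0, and 6.07 and 34.2 per kb. The summed level of the replication-independent genes was 66.8 times that of the members, 19.9 times per kb and 48.0 times without the highest gene on each side. The cause of these shifts was not tested. Depth limits genes near 1 normalized count, for which a few reads decide the mean.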

Other observations

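Symbols of 3 further rows meet the naming rule under another locus type. The pseudogenes Hist3h2bb-ps, Hist1h2al and Hist1h2aj had 1.71, 0.35 and 0.23 mean normalized counts.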
